A study of Mus musculus with 19 samples.

Results

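The sarcomere is the contractile unit of striated muscle, and 42 genes for its parts were followed here in RNA from mouse oral tumours. The members were the rows of the count table whose Ensembl identifier, with the version removed, maps to 42 listed mouse symbols, out of 55487 genes in the table. Of the 42 members, 39 passed the filter on low counts, beside 16909 genes in all. The 3 that did not were slow-fibre genes, Myl2, Myl3 and Tnnc1, with 0 to 8, 0 to 7 and 0 to 9 counts per library. By fibre type the members were listed as 12 fast genes, 7 slow genes and 23 others, called genes of both fibre types below.

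All animals were C57BL/6J mice, 6 weeks old at the start, given 4NQO, a carcinogen that forms tumours in the mouth, at 100 ug/ml in drinking water for 10 weeks and plain water after that. The 5 groups were vehicle (4 libraries), regorafenib at 5 mg/kg/day (4), anti-PD1 (3), anti-PD1 with regorafenib, called the combination below (5), and an anti-CD40 agonist (3). Regorafenib is an oral inhibitor of several receptor tyrosine kinases of blood vessel and stromal cells, anti-PD1 is an antibody against a checkpoint receptor of T cells, and an anti-CD40 agonist activates antigen-presenting cells. The labels name the tissue of every library as oral squamous cell carcinoma and give no antibody dose, no site in the mouth and no statement of how much surrounding tissue was taken. The regorafenib dose of the combination is not stated on its own, so an equal dose in both groups is not given. The labels do not say that libraries of a group came from separate animals, and the spread that p-values rest on here may in part be technical. Totals ran from 16776177 to 24969492 counts per library. The summed level of 9 keratinocyte genes, the markers of the labelled tissue, lay between 53748 and 73554 CPM, that is counts scaled to the same library total, in the 19 libraries.

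In a sarcomere, thick filaments of myosin slide along thin filaments of actin. The thin filaments are anchored in the Z-disc, the thick filaments are cross-linked in the M-band, and titin spans from the Z-disc to the M-band. Calcium starts contraction by binding troponin C, which lets troponin I and troponin T move tropomyosin away from the myosin sites. Fast and slow fibres use different genes for many of these proteins, and muscles of the mouse tongue and jaw are made mainly of fast fibres.

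Promoter windows show the DNA in front of members that changed, 3 of them in one direction and Tpm3 in the other. The 4 members printed are those with a window that had the smallest p between the combination and regorafenib, the test with most members called. Myom1 links thick filaments in the M-band, Mybpc1 binds myosin along the thick filament, Tpm3 is a tropomyosin and Xirp2 is an actin-binding protein of the Z-disc. Each window runs from 250 bases before to 50 bases after a RefSeq start on GRCm38.p6, written 5′ to 3′ along the gene, with capitals on the first match in the window to a CArG box, a MEF2 site or CAGCTG. The windows are Myom1 at chr17:71019307-71019606 on the plus strand (CArG box), Mybpc1 at chr10:88605103-88605402 on the minus strand (CAGCTG), Tpm3 at chr3:90072401-90072700 (CAGCTG) and chr3:90079271-90079570 (no such match), both on the plus strand, and Xirp2 at chr2:67445752-67446051 on the plus strand (MEF2 site).
Myom1: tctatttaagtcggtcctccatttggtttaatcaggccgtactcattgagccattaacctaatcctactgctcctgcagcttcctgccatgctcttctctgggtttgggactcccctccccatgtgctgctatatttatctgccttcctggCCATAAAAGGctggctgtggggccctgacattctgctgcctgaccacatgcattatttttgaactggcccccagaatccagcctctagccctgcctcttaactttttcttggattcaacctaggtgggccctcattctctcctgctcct
Mybpc1: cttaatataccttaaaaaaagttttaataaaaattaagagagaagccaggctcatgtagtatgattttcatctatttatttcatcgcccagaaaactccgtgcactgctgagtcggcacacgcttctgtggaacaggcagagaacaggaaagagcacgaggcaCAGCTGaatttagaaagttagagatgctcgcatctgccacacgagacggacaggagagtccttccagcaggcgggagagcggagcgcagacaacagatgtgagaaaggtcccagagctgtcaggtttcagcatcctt
Tpm3, first start: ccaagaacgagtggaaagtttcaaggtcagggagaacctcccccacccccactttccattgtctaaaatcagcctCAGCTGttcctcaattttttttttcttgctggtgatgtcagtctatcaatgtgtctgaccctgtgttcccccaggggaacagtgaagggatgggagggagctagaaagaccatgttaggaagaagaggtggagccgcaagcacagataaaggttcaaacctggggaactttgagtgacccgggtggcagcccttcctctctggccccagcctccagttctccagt
Tpm3, second start: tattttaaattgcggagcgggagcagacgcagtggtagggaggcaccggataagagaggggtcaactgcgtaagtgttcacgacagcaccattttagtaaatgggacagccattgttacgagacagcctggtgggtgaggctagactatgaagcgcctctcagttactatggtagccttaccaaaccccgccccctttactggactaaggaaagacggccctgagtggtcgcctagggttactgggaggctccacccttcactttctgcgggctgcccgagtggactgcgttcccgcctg
Xirp2: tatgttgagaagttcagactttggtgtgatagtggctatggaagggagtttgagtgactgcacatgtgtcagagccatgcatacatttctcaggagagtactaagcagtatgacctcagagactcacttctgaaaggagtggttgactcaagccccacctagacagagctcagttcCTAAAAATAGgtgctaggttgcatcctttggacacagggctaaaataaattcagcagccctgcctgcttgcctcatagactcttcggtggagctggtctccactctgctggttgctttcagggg

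The RefSeq promoter table held 38 windows for 31 members, and 32851 windows over all genes. Members without a window were Lmod3, Myom2, Myot, Tnnt3, Tcap, Xirp1, Actn3, Myoz3, Neb, Myoz1 and Tnni2. Motifs were searched on both strands. The CArG box, the site of serum response factor, was in 15.8% of the members' windows and in 1.63% of all windows, and the MEF2 site in 13.2% and 3.19%. CAGCTG, a form of the E-box CANNTG that myogenic factors bind, was in 39.5% of the members' windows and 16.3% of all, and the E-box itself in 81.6% and 72.3%. CATTCC, the site of TEAD factors, was in 36.8% and 14.7%, and TATAAA in 18.4% and 13.6%. Every CAGCTG is also a CANNTG. Members with a CArG box were Acta1, Ldb3, Myh4, Myl3 and Myom1, and those with a MEF2 site were Myh1, Myh4, Myom3, Ttn and Xirp2. The RefSeq start used for Myom1 lies inside the annotated gene given below. A match is a string of letters and says nothing about binding in these tumours.

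Together the 42 members took 4.72% ± 0.320 (SD, n = 4) of all counts with vehicle and 3.52% ± 0.300 (n = 4) with regorafenib. The share was 4.81% ± 0.323 (n = 3) for anti-PD1, 4.86% ± 0.524 (n = 5) for the combination and 5.10% ± 0.878 (n = 3) for anti-CD40. The 4 regorafenib libraries lay between 3.20% and 3.88%. The lowest library of any other group, combination 4, was at 4.19%, so the regorafenib libraries stood below the other 15. Relative to the vehicle mean, the median member was at -0.38, -0.27, -0.62 and -0.61 log2 CPM in regorafenib 1 to 4. Outside that group the medians ran from -0.27 in anti-CD40 3 and -0.25 in combination 4 to 0.38 in anti-CD40 2. These are bulk samples, so fewer muscle fibres in a sample and less of these RNAs per fibre cannot be told apart. By the median member the order differed from that by share of counts. Anti-CD40 3, at -0.2743, was just below regorafenib 2, at -0.2722. The heat map shows the members by library.

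**Figure D1:**
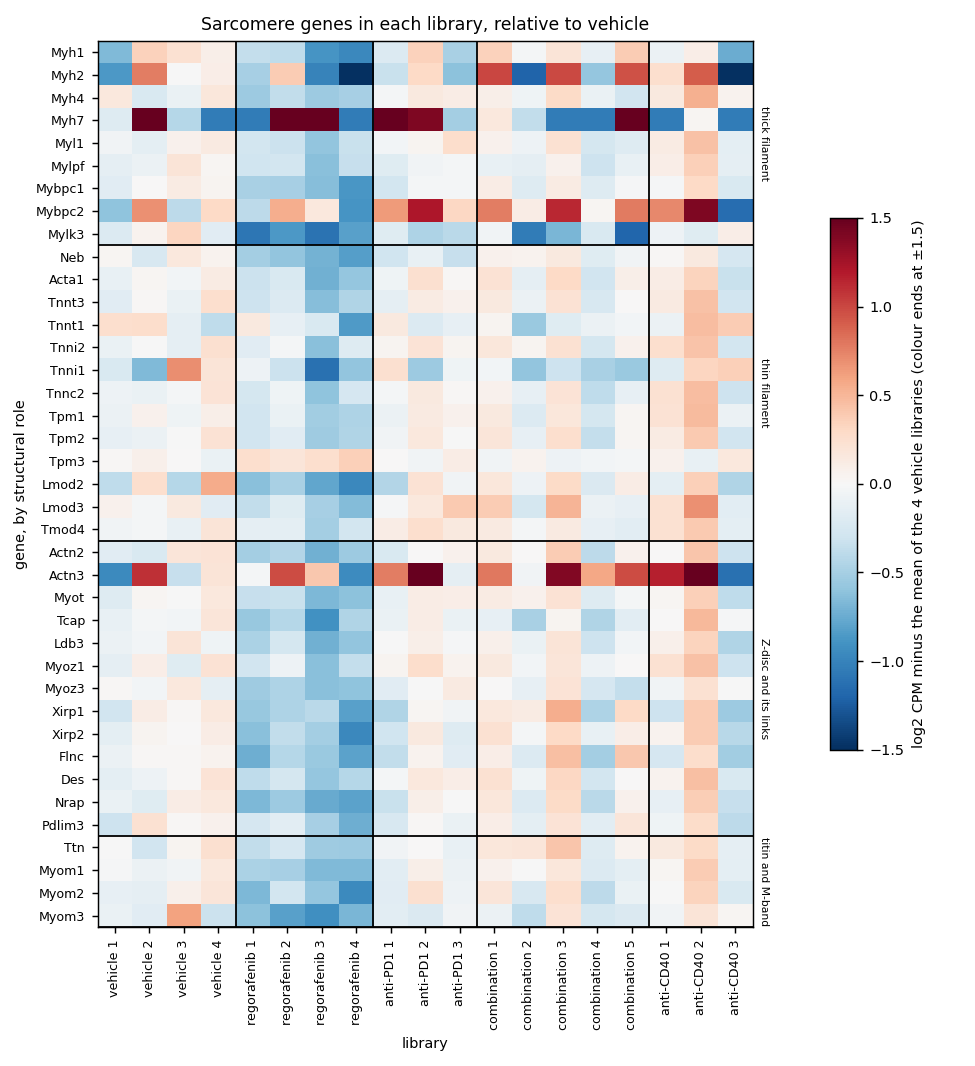
Log2 CPM of the 39 tested members (rows, by structural role) in the 19 libraries (columns, by group), minus the mean of the 4 vehicle libraries; blue is lower, red is higher and the colours end at ±1.5. The 4 regorafenib columns are blue in most rows, with Tpm3 pale red, and Myh2, Mybpc2, Actn3 and the near-absent Myh7 vary from library to library within groups. Members below the vehicle mean numbered 34 to 38 in the regorafenib libraries. Some other libraries were similar, with 37 in combination 4, 33 in anti-CD40 3 and 33 in vehicle 1, while anti-CD40 2 had 2.

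With regorafenib, 16 of the 39 tested members fell and Tpm3 rose, at an adjusted p under 0.05 in edgeR's quasi-likelihood test. The share of all tested genes called was 6.32%, and the share called lower was 3.00%. The median change of the 39 members was a log2 change of -0.49, beside 0.00 over all genes tested, and 36 of the 39 estimates lay below 0. At an unadjusted p under 0.05, 31 members passed, beside 24.5% of all tested genes. In 26 members the 4 regorafenib libraries all lay below the 4 vehicle libraries, as in 7.88% of all tested genes, and in Tpm3 they all lay above.

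Neb (ENSMUSG00000026950.18, chromosome 2 from 52136647 to 52378474 on GRCm38), the giant nebulin that runs along the thin filament, had the smallest p. It read 1572, 1299, 1723 and 1598 CPM in vehicle 1 to 4 and 1078, 1019, 945 and 872 CPM in regorafenib 1 to 4. In anti-PD1 1 to 3 it read 1252, 1421 and 1214 CPM, in combination 1 to 5 it read 1604, 1602, 1710.4, 1356 and 1482 CPM, and in anti-CD40 1 to 3 it read 1560.2, 1709.7 and 1292 CPM. All 4 regorafenib libraries were below all others, and the other 4 groups overlapped one another. The fall from vehicle was a log2 change of -0.66 ± 0.11 (SE, adjusted p = 0.00356 in edgeR's test).

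In the M-band all 4 tested genes fell, counting titin, whose end lies there. The myomesins Myom1, Myom2 and Myom3 tie thick filaments to one another, Myom1 in all fibres. Myom1 (ENSMUSG00000024049.15, chromosome 17 from 71002633 to 71126856) read 911, 868, 889 and 1024 CPM in vehicle 1 to 4 and 661, 652, 583 and 581 CPM in regorafenib 1 to 4. It read 826, 976 and 867 CPM in anti-PD1 1 to 3, 960.5, 918, 1036, 802 and 832 CPM in combination 1 to 5, and 940.3, 1196 and 835 CPM in anti-CD40 1 to 3. The regorafenib libraries overlapped no other group. Its log2 change from vehicle was -0.58 ± 0.11 (adjusted p = 0.00758).

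Myom3 (ENSMUSG00000037139.15, chromosome 4 from 135759715 to 135815564) was at a lower level, with 117, 112, 190.5 and 101 CPM in vehicle 1 to 4 and 82.0, 71.4, 66.2 and 78.4 CPM in regorafenib 1 to 4. It read 113, 108 and 121 CPM in anti-PD1 1 to 3, 118, 96.9, 145, 105 and 108 CPM in combination 1 to 5, and 122, 144 and 128 CPM in anti-CD40 1 to 3. Vehicle 3 was the highest library of all, and the regorafenib libraries were again below every other. Its log2 change from vehicle was -0.80 ± 0.16 (adjusted p = 0.0123). Myom2 changed by -0.61 ± 0.16 (adjusted p = 0.0349). Titin, Ttn (ENSMUSG00000051747.15, chromosome 2 from 76703980 to 76982547), the molecular spring of the sarcomere, was at 2336, 1927, 2418 and 2780.2 CPM in vehicle 1 to 4 and at 1818, 1970.2, 1625 and 1605 CPM in regorafenib 1 to 4. In the other groups Ttn read 2261, 2356 and 2162 CPM in anti-PD1 1 to 3, 2644, 2670.3, 3119, 2044 and 2442 CPM in combination 1 to 5, and 2598, 2866 and 2132 CPM in anti-CD40 1 to 3. Regorafenib 2 was above vehicle 2, so those groups overlapped. Its log2 change of -0.43 ± 0.13 was just inside the threshold (adjusted p = 0.0499), and the call was lost when any of 13 of the 19 libraries was left out. With offsets for exon length and GC content the estimate for Ttn, the longest member, was 0.06 (adjusted p = 0.812), so its direction depends on that choice.

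**Figure D2:**
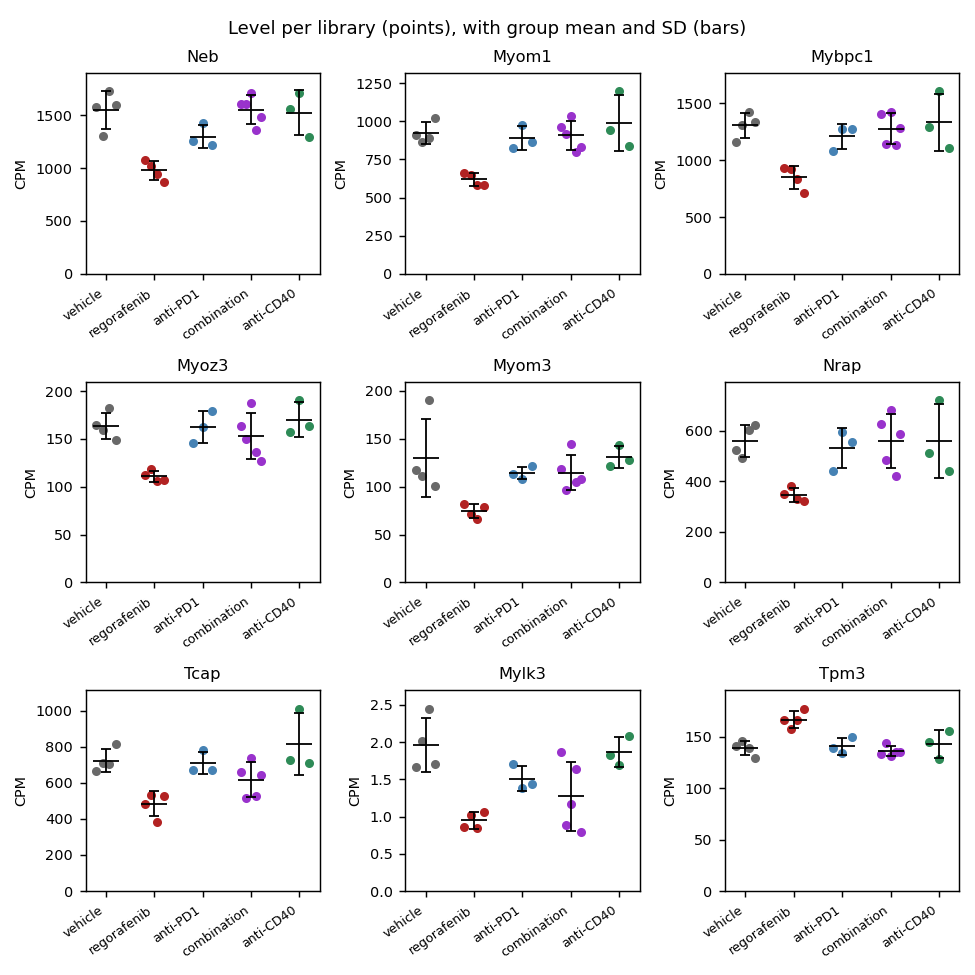
Level of 9 members in CPM (vertical axes, linear from 0) in each library (points), by group, with the group mean and SD as bars. In every panel but Tpm3 the 4 regorafenib points sit lowest or among the lowest, and in Tpm3 they sit highest, between 158 and 178 CPM; for Tcap and Mylk3 combination libraries reach down to the regorafenib level.

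At the thick filament 4 of the 9 tested genes fell, which were Mybpc1, Myh4, Mylpf and Mylk3. Mybpc1 (ENSMUSG00000020061.18, chromosome 10 from 88518279 to 88605152), slow myosin-binding protein C, read 1158, 1309.9, 1419 and 1335 CPM in vehicle 1 to 4 and 930.3, 919, 836 and 713 CPM in regorafenib 1 to 4. It read 1079, 1273 and 1274 CPM in anti-PD1 1 to 3, 1404, 1140.4, 1422, 1135 and 1285 CPM in combination 1 to 5, and 1288, 1603 and 1108 CPM in anti-CD40 1 to 3. All regorafenib libraries were lowest, and the log2 change from vehicle was -0.62 ± 0.12 (adjusted p = 0.00873). Myh4 (ENSMUSG00000057003.12, chromosome 11 from 67238029 to 67260446), the heavy chain of the fastest fibres, read 12147, 9248, 10119.8 and 12191 CPM in vehicle 1 to 4 and 7465, 8377, 7411 and 7680.2 CPM in regorafenib 1 to 4. It read 10645, 12053 and 11682 CPM in anti-PD1 1 to 3, 11559, 10385, 13262, 10154 and 8887 CPM in combination 1 to 5, and 11994, 15760.2 and 11241 CPM in anti-CD40 1 to 3. Here too no other group reached down to regorafenib, and the log2 change from vehicle was -0.50 ± 0.13 (adjusted p = 0.0277). Mylpf, the fast regulatory light chain, changed by -0.38 ± 0.11 (adjusted p = 0.0446).

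Mylk3 (ENSMUSG00000031698.14, chromosome 8 from 85324303 to 85386345), a myosin light chain kinase best known from heart, had the largest change among the members called, at a low level of 15 to 50 counts per library. It read 1.67, 2.02, 2.45 and 1.71 CPM in vehicle 1 to 4 and 0.860, 1.02, 0.845 and 1.06 CPM in regorafenib 1 to 4. It read 1.70, 1.38 and 1.44 CPM in anti-PD1 1 to 3, 1.86, 0.887, 1.17, 1.64 and 0.797 CPM in combination 1 to 5, and 1.83, 1.69 and 2.08 CPM in anti-CD40 1 to 3. Combination 2 and combination 5 were at the regorafenib level, and the other 3 combination libraries were above it. The log2 change with regorafenib was -1.03 ± 0.24 (adjusted p = 0.0177, and 0.0549 without vehicle 3). Of 9 genes of a cardiac list, 4 were too low to be tested, with at most 3 counts of Myh6, 2 of Nppa, 2 of Mybpc3 and 6 of Gata4 in any library. The other 5 passed the count filter, with means over all libraries of 11.7 CPM for Tnnt2, 2.45 for Nkx2-5, 1.35 for Myl7, 1.03 for Nppb and 0.860 for Tnni3. The list summed to 13.5 to 22.8 CPM in the 19 libraries. Vehicle, at 17.7 to 20.9 CPM, and regorafenib, at 14.1 to 20.1 CPM, overlapped. Each combination library, at 13.5 to 16.5 CPM, was below each vehicle library, a gap that was not tested. All other pairs of groups overlapped. Nppb, a natriuretic peptide, rose with regorafenib by 1.78 ± 0.45 (log2, adjusted p = 0.0277) and was lower in the combination than with regorafenib, at -1.91 ± 0.43 (adjusted p = 0.0127). The part of cardiac genes in the change of Mylk3 was not tested.

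At the Z-disc and its links 7 of 13 genes fell, which were Myoz3, Nrap, Tcap, Xirp2, Myot, Ldb3 and Actn2. Myoz3 (ENSMUSG00000049173.8), a calcineurin-binding protein of fast fibres, read 165, 159, 182 and 149 CPM in vehicle 1 to 4 and 112, 118, 106 and 107 CPM in regorafenib 1 to 4. It read 146, 162 and 179 CPM in anti-PD1 1 to 3, 163, 149.5, 188, 137 and 127 CPM in combination 1 to 5, and 157, 191 and 163 CPM in anti-CD40 1 to 3. The regorafenib libraries were the 4 lowest and close to one another, and the log2 change from vehicle was -0.56 ± 0.10 (adjusted p = 0.00764). Nrap (ENSMUSG00000049134.15, chromosome 19 from 56320035 to 56390037), which helps assemble myofibrils, read 522, 494, 604 and 624 CPM in vehicle 1 to 4 and 349, 383, 331 and 321 CPM in regorafenib 1 to 4. It read 442, 594 and 555 CPM in anti-PD1 1 to 3, 627, 483, 682, 422 and 586 CPM in combination 1 to 5, and 512, 721 and 439.6 CPM in anti-CD40 1 to 3. No other group reached down to regorafenib, and the log2 change from vehicle was -0.70 ± 0.16 (adjusted p = 0.0170).

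Tcap (ENSMUSG00000007877.2, chromosome 11 from 98383811 to 98384953), the telethonin that caps titin in the Z-disc, read 666, 709, 702 and 814 CPM in vehicle 1 to 4 and 484, 535, 385 and 528 CPM in regorafenib 1 to 4. It read 673, 781 and 673 CPM in anti-PD1 1 to 3, 659.8, 515, 741, 527 and 646 CPM in combination 1 to 5, and 725, 1012 and 710.0 CPM in anti-CD40 1 to 3. Regorafenib was below vehicle in every library, while combination 2 and combination 4 were among the regorafenib values. The log2 change from vehicle was -0.58 ± 0.13 (adjusted p = 0.0191). Xirp2 (ENSMUSG00000027022.14, chromosome 2 from 67446002 to 67526614), whose promoter window holds a MEF2 site, read 503, 571, 559 and 599.7 CPM in vehicle 1 to 4 and 360.4, 432, 392 and 285 CPM in regorafenib 1 to 4. It read 451, 615 and 489 CPM in anti-PD1 1 to 3, 655, 545, 685, 515 and 596 CPM in combination 1 to 5, and 578, 727 and 418 CPM in anti-CD40 1 to 3. Among libraries without regorafenib, anti-CD40 3 alone came down to that level, and the log2 change from vehicle was -0.60 ± 0.15 (adjusted p = 0.0274). The 3 other Z-disc calls were Myot, Ldb3 and the cross-linker Actn2, at -0.49 ± 0.13, -0.51 ± 0.14 and -0.56 ± 0.16. Uncalled Z-disc members included Flnc, the filamin of muscle, at -0.62 ± 0.19 (adjusted p = 0.0577), and Des, desmin, at -0.41 ± 0.14 (adjusted p = 0.0722).

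At the thin filament 1 of 13 tested genes fell, which was Neb, and 1 rose. The riser was Tpm3 (ENSMUSG00000027940.18, chromosome 3 from 90072649 to 90100902), which encodes the slow-fibre tropomyosin and, from other starts and exons, tropomyosins of cells outside muscle. The counts are per gene and do not separate those products, and both printed Tpm3 windows belong to it. Tpm3 read 141, 146, 139 and 129.6 CPM in vehicle 1 to 4 and 166, 158, 166 and 178 CPM in regorafenib 1 to 4. It read 139, 134 and 150.1 CPM in anti-PD1 1 to 3, 134, 145, 132, 135 and 136 CPM in combination 1 to 5, and 145, 129 and 156 CPM in anti-CD40 1 to 3. The 4 regorafenib libraries were the highest of the 19, with anti-CD40 3 closest below. The log2 change from vehicle was 0.26 ± 0.06 (adjusted p = 0.0225). Other thin-filament genes that did not pass included Acta1, skeletal actin, at -0.45 ± 0.15 (adjusted p = 0.0686), and Lmod2, which seeds actin filaments, at -0.77 ± 0.22 (adjusted p = 0.0513). The tropomyosins Tpm1 and Tpm2, at -0.34 ± 0.12 and -0.36 ± 0.14, had adjusted p-values of 0.104 and 0.121. Fast troponin genes were at -0.40 ± 0.14 (Tnnt3), -0.29 ± 0.15 (Tnnc2) and -0.25 ± 0.15 (Tnni2), with none called.

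Several calls depended on single libraries. Leaving out each of the 19 libraries in turn, 5 of the 17 calls held every time, those of Neb, Myom1, Myoz3, Mybpc1 and Myom3. Leaving out vehicle 3 gave 9 members called and leaving out vehicle 4 gave 6, while the fits that lacked regorafenib 1, regorafenib 3 or regorafenib 4 gave 9, 9 and 7. Over all tested genes these 5 fits called 2.75%, 1.59%, 2.81%, 3.82% and 1.66%, in that order. Keratinocyte genes were higher in the same regorafenib libraries. Their summed level was 59160 to 64516 CPM in the vehicle libraries and 71291 to 73459 CPM in the regorafenib libraries, and 5 of 9 rose, among them Krt14 by 0.93 ± 0.20, Krt6a by 0.51 ± 0.13 and Krt16 by 0.89 ± 0.22 (log2). Other groups reached as high: their summed level was 53748 to 73554 CPM with anti-PD1, 57749 to 71614 CPM in the combination and 59883 to 68720 CPM with anti-CD40. Whether they have a part in the lower muscle values was not tested.

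Genes of muscle fibres from lists that hold no members fell in part in the same comparison. Of 8 skeletal muscle markers outside the sarcomere, 3 fell (median -0.41), and their summed level was 15569 to 18697 CPM with vehicle and 10282 to 13330 CPM with regorafenib. The markers were Ckm, Ryr1, Cacna1s, Casq1, Atp2a1, Mb, Pygm and Myf6. Ryr1 and Myf6, at least, are counted again in lists below, so the lists are not separate. With the mean log2 CPM of these 8 markers as a covariate, a fit added after the data were seen, edgeR called 0 of the 39 members between regorafenib and vehicle (10 at an unadjusted p under 0.05). Calls were lost over all genes too: that fit called 0.124% of all tested genes, and 13.8% had an unadjusted p under 0.05. The summed markers did not overlap between vehicle and regorafenib, so the covariate carries much of the group difference itself. A loss of calls in such a fit cannot tell why the members changed. The members' median change was then -0.11, and Neb was at -0.42 (adjusted p = 0.0861). In that fit Mylk3 was at -1.09 (adjusted p = 0.154) and Myom3 at -0.66 (adjusted p = 0.204).

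Among genes that fold and maintain the sarcomere, 13 of 24 fell, led by Klhl41, a stabiliser of nebulin, at -0.48 ± 0.09, Capn3, a protease held by titin, at -0.98 ± 0.19, and Synpo2l, an actin-bundling Z-disc protein, at -0.61 ± 0.12. Of 16 genes that couple the nerve signal to calcium release, 10 fell, led by the release channel Ryr1 (-0.69 ± 0.11), triadin, Trdn (-0.56 ± 0.11), and the channel subunit Cacnb1 (-0.47 ± 0.10). Of 15 rows for muscle energy supply, 2 fell, Ampd1 and Phka1, which act in nucleotide and glycogen use. Of 11 tested myogenic and satellite cell genes, 3 fell, Mef2c (-0.54 ± 0.11), Mef2d (-0.34 ± 0.08) and Six4 (-0.58 ± 0.14), while Myf6, a myogenic factor of mature fibres, was at -0.07 ± 0.21. Of 5 tested developmental and eye or jaw muscle genes, Myoz2 had the smallest adjusted p (0.0546) at -0.75. Of other muscle types, 1 of 9 smooth muscle genes fell (Myocd), with summed levels of 218 to 258 CPM in vehicle and 229 to 242 CPM in regorafenib, and of 5 tested cardiac genes Nppb alone passed, and rose. Dcn of fibroblasts (1 of 6) and Lipe of adipocytes (1 of 5) fell. Over all tested genes 6.32% were called in this comparison and 3.00% were called lower. A single call in a list this small is therefore not read as a change of the list. The summed level of salivary gland genes ranged from 7.51 to 23318 CPM within the vehicle libraries alone.

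In the group labelled anti-PD1 with regorafenib, the median member was near its vehicle level. Against vehicle, edgeR called 0 of 39 members in the combination, beside 0.0237% of all tested genes. At an unadjusted p under 0.05, as for 10.8% of all tested genes, there was 1, Mylk3 at -0.61 ± 0.22 (adjusted p = 0.325). DESeq2 called 0 members, beside 0.748% of the genes to which it gave an adjusted p. The median change in edgeR was 0.01, 21 estimates lay above 0 and 18 below, and Neb was at 0.00 ± 0.10. Tcap was at -0.23 ± 0.13 (adjusted p = 0.550). A p above the threshold does not show that the groups were alike: for Tnni1, at -0.51 ± 0.30, and Actn3, at 0.62 ± 0.58, the estimates are as large as changes called with regorafenib.

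**Figure D3:**
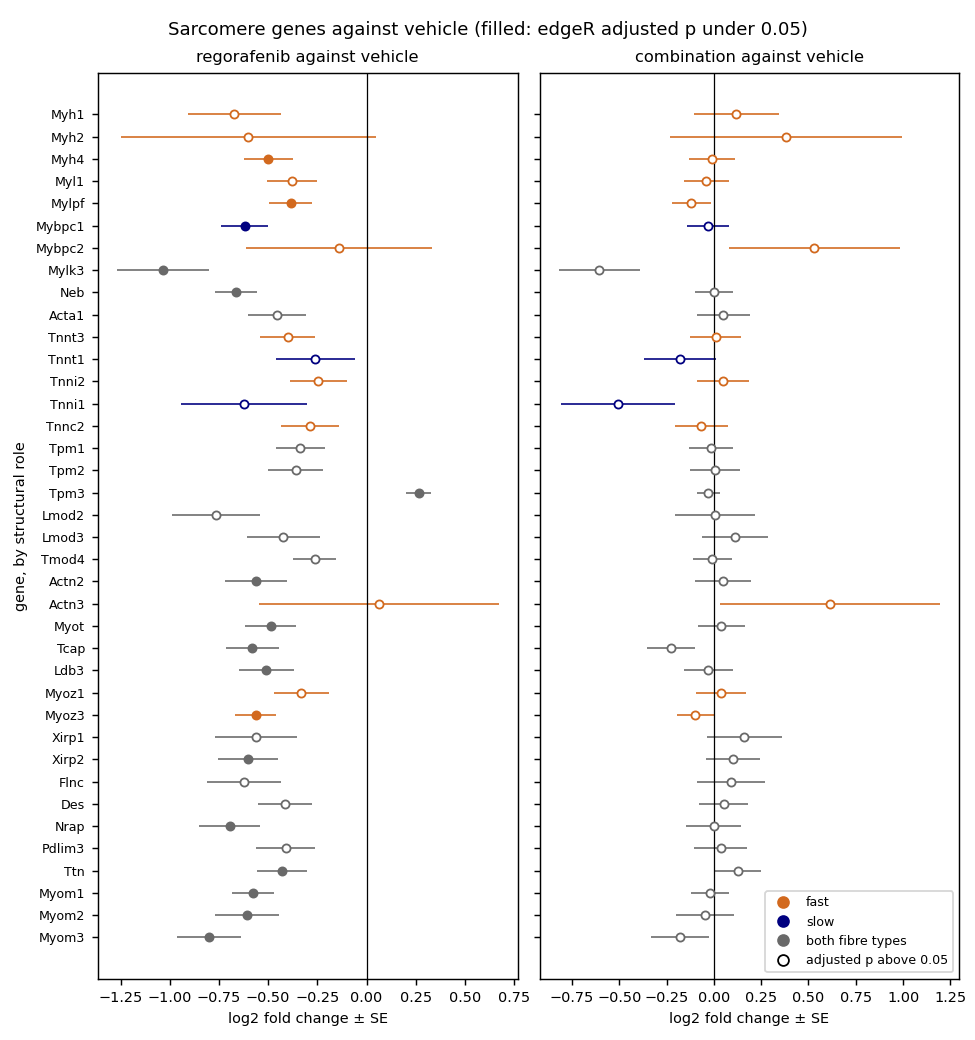
Log2 fold change ± SE (horizontal axes) of the tested members (rows, by role, without the near-absent Myh7) with regorafenib and with the combination, each against the same 4 vehicle libraries; filled points passed edgeR's adjusted threshold of 0.05 and colours give the fibre type. Most points lie left of 0 with regorafenib and around 0 with the combination, where no point is filled.

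Tested directly against regorafenib, 19 members were higher in the combination and Tpm3 was lower, 20 of 39 in all. Of all tested genes, 10.5% were called in this comparison and 5.67% were called higher. The median member changed by 0.49, beside -0.01 over all genes, and 37 of 39 estimates were above 0. In 15 members all 5 combination libraries lay above all 4 regorafenib libraries, as in 7.24% of all tested genes. This comparison uses the same 4 regorafenib libraries as that against vehicle, so the calls of one are not independent of the other. Neb was higher by 0.66 ± 0.10 (adjusted p = 0.00341), Myom1 by 0.56 ± 0.10 (adjusted p = 0.00505), Mybpc1 by 0.59 ± 0.11 (adjusted p = 0.00647), and Tpm3 was lower, at -0.29 ± 0.06 (adjusted p = 0.00860). Xirp2, Myoz3, Nrap and Ttn followed at 0.71 ± 0.15, 0.46 ± 0.10, 0.69 ± 0.15 and 0.56 ± 0.12. By role, 3 of 9 thick-filament genes were higher, 3 of 13 thin-filament genes, 9 of 13 Z-disc genes and 4 of 4 titin and M-band genes.

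Some members passed in this comparison that had not passed between regorafenib and vehicle. Flnc, filamin of muscle, was higher by 0.71 ± 0.18 (adjusted p = 0.0217), beside -0.62 ± 0.19 against vehicle, and Lmod2 by 0.77 ± 0.21 (adjusted p = 0.0329), beside -0.77 ± 0.22. Acta1, Des, Xirp1 and Myh1 were higher by 0.50 ± 0.14, 0.47 ± 0.13, 0.72 ± 0.20 and 0.79 ± 0.23. For regorafenib against vehicle their adjusted p-values in edgeR's test were 0.0686, 0.0722, 0.110 and 0.0941, with Xirp1 at -0.56 ± 0.21. Not called here were Mylk3 (0.43 ± 0.23, adjusted p = 0.233), Tcap (0.35 ± 0.13, adjusted p = 0.0806) and Mylpf (0.27 ± 0.10, adjusted p = 0.105). Leaving out each library in turn, 8 of the 20 calls held every time, those of Neb, Myom1, Mybpc1, Tpm3, Xirp2, Myoz3, Nrap and Ttn. With offsets for exon length and GC content the call of Ttn was lost, at 0.20 (adjusted p = 0.268), and the other 7 stayed called. Fits that lacked regorafenib 1, regorafenib 3 or regorafenib 4 gave 13, 11 and 8 calls, and those that lacked combination 1 or combination 3 gave 11 and 9. Over all tested genes these 5 fits called 5.59%, 6.57%, 2.87%, 4.24% and 4.74%, in that order. The 8 markers outside the sarcomere were 14913 to 19768 CPM in the combination. With them as a covariate, edgeR called 0 members (6 at an unadjusted p under 0.05) and the median was 0.03. Of all tested genes that fit called 0.00591%, and 11.2% had an unadjusted p under 0.05. Here too the summed markers separated the groups compared, so the same limit applies to the lost calls.

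Neither antibody alone moved the members past the threshold. With anti-PD1, edgeR called 0 of 39 members, as it called 0% of all tested genes. At an unadjusted p under 0.05, as for 9.32% of all tested genes, there was 1, Neb at -0.26 ± 0.12 (adjusted p = 0.496), and the next was Mylk3 at -0.37 ± 0.24. The median member was at -0.01. DESeq2 called 0 members, beside 0.560% of the genes to which it gave an adjusted p. With anti-CD40, edgeR called 0 of 39 members, again beside 0% of all tested genes, with 0 at an unadjusted p under 0.05 (6.06% of all genes). DESeq2 called 0 members there, beside 0.0296% of the genes to which it gave an adjusted p. In edgeR the median was 0.06, and the smallest p-values were those of Myh4 at 0.25 ± 0.14 (adjusted p = 0.842) and Tpm1, a tropomyosin of fast and cardiac muscle, at 0.22 ± 0.13. Tpm1 read 1510.0, 1671, 1532 and 1706 CPM in vehicle 1 to 4 and 1865, 2234 and 1509 CPM in anti-CD40 1 to 3, where anti-CD40 2 was far above the others. Elsewhere Tpm1 read 1310.1, 1491, 1118 and 1162 CPM (regorafenib 1 to 4), 1512, 1759 and 1674 CPM (anti-PD1 1 to 3), and 1774, 1391, 1807, 1334 and 1635 CPM in combination 1 to 5. Each regorafenib library of Tpm1 was below each vehicle, anti-PD1 and anti-CD40 library, and the combination overlapped all groups.

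Between the combination and anti-PD1, edgeR called 0 of 39 members, beside 0.00591% of all tested genes. Neb alone had an unadjusted p under 0.05, as 9.94% of all tested genes did, at 0.26 ± 0.11 (adjusted p = 0.426). The next smallest p was that of Tmod4, which caps the pointed ends of thin filaments, at -0.17 ± 0.11 (adjusted p = 0.658). DESeq2 called 0 members, beside 0.753% of the genes to which it gave an adjusted p. Tmod4 read 103, 114 and 106 CPM in anti-PD1 1 to 3 and 105, 93.8, 105, 88.1 and 86.0 CPM in combination 1 to 5. It read 92.2, 94.1, 88.8 and 109.6 CPM in vehicle 1 to 4, 87.1, 86.7, 67.2 and 79.2 CPM in the 4 regorafenib libraries, and 113, 126 and 86.4 CPM in anti-CD40 1 to 3. Those groups overlapped, save that vehicle and anti-PD1 both stayed above regorafenib.

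Whether regorafenib acted differently with anti-PD1 was tested as an interaction of both drugs, which takes the regorafenib dose as equal in both groups. The estimate was positive in 35 of 39 members with a median of 0.44, beside 0.00 over all genes, and 1 member, Neb, passed, beside 0.627% of all tested genes. For Neb the interaction was 0.92 ± 0.15 (log2, adjusted p = 0.0138), which sets the change of -0.66 without anti-PD1 beside that of 0.26 with it. The Neb call was lost without anti-PD1 1 (adjusted p = 0.0586) and without anti-PD1 3 (adjusted p = 0.0646), each of which leaves 2 anti-PD1 libraries. With offsets for exon length and GC content the estimate was 0.58 (adjusted p = 0.141). With the muscle marker covariate it was 0.68 (adjusted p = 0.0380). In all, 21 members had an unadjusted p under 0.05, beside 15.8% of all tested genes, and the next after Neb was Mybpc1 at 0.70 ± 0.17 (adjusted p = 0.0651). A test for any difference among the 5 groups called 10 members, beside 4.49% of all tested genes: Neb, Myom1, Myoz3, Mybpc1, Myh4, Tcap, Tpm3, Myom3, Nrap and Xirp2.

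Fast genes outweighed slow genes in all groups. Levels between genes are given per kilobase of exon (CPM per kb). Of the summed fast and slow level, fast genes made up 97.2% ± 0.23 (SD, n = 4) with vehicle, 97.6% ± 0.31 (n = 4) with regorafenib, 97.5% ± 0.12 (n = 3) in anti-PD1, 97.3% ± 0.13 (n = 5) in the combination and 97.4% ± 0.16 (n = 3) in anti-CD40 libraries. The ranges overlapped: vehicle ran from 96.95% to 97.48% and regorafenib from 97.25% to 97.97%. No test was made on this share, since it is a score over the members. Nearly all of the slow part was Mybpc1, and without it the group means ran from 99.971% to 99.977%.

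**Figure D4:**
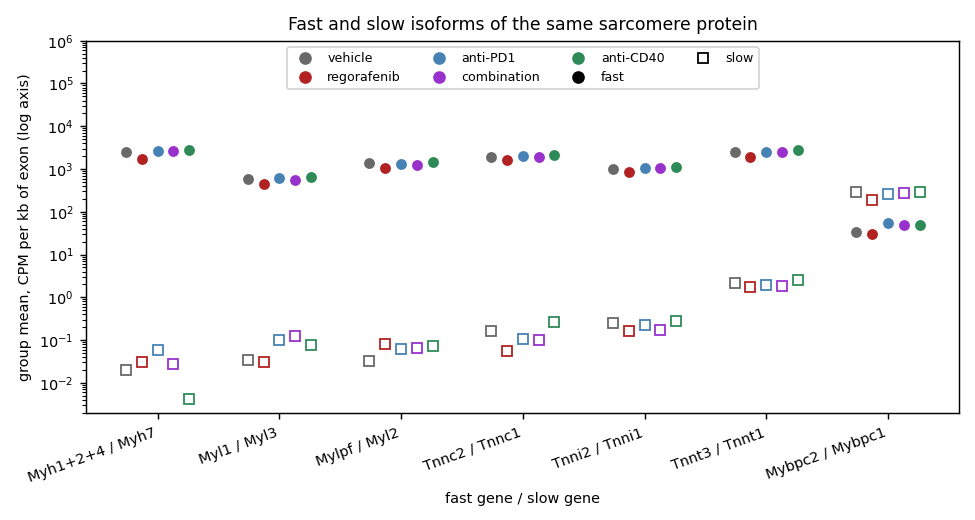
Group mean level in CPM per kb of exon (vertical log axis) of the fast gene (circles) and the slow gene (open squares) of 7 sarcomere proteins (horizontal axis), with colours for the 5 groups. Fast genes are higher by several powers of 10 in 6 of the pairs, and in myosin-binding protein C the slow gene is the higher; the slow values of the heavy and light chains, troponin C and troponin I rest on few counts per library.

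In the heavy chain, Myh1, Myh2 and Myh4 together read 2555 CPM per kb ± 154 (SD, n = 4) with vehicle and 1749.5 ± 154 (n = 4) with regorafenib, while slow Myh7 had 0 to 21 counts per library over the whole study. Myh4 made up 71.0% ± 8.30 of the heavy chain level with vehicle and 73.7% ± 4.07 with regorafenib. Its share was 74.1% ± 5.18 for anti-PD1, 69.0% ± 4.76 for the combination and 77.9% ± 3.50 for anti-CD40. Myh1, of fibres of intermediate speed, held nearly all of the remainder. Its 19 values ran from 17.9% in vehicle 1 to 37.7% in combination 5, and every pair of groups overlapped except the combination (26.4% to 37.7%) and anti-CD40 (18.2% to 24.7%), a gap that was not tested. Myh2 reached at most 1.03%. These 3 genes are near-identical neighbours on chromosome 11, and how reads that fit several of them were counted is not given in the sources used here, so the split among them is uncertain.

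Myh1 itself read 2807, 5666, 5229 and 4712 CPM in vehicle 1 to 4 and 3466, 3416, 2404 and 2272 CPM in regorafenib 1 to 4. It read 3860.2, 5655 and 3183 CPM in anti-PD1 1 to 3, 5674, 4362, 5083, 4095 and 5772 CPM in combination 1 to 5, and 4186, 4759.7 and 2652 CPM in anti-CD40 1 to 3. Vehicle 1, anti-PD1 3 and anti-CD40 3 lay within the regorafenib values, and the change from vehicle was -0.67 ± 0.24 (adjusted p = 0.0941). The essential light chain Myl1 read 1143, 1071, 1233 and 1295 CPM in vehicle 1 to 4 and 979, 943, 786 and 939.9 CPM in regorafenib 1 to 4. It read 1147, 1215 and 1417 CPM in anti-PD1 1 to 3, 1239, 1121, 1384, 983 and 1038 CPM in combination 1 to 5, and 1284, 1602 and 1067 CPM in anti-CD40 1 to 3. Its regorafenib libraries were all below vehicle, at -0.38 ± 0.13 (adjusted p = 0.0741). The regulatory light chain Mylpf, called above, read 1309, 1358, 1642 and 1471 CPM in vehicle 1 to 4 and 1171, 1189.6, 932 and 1135 CPM in regorafenib 1 to 4. It read 1274, 1383 and 1409 CPM in anti-PD1 1 to 3, 1333, 1310.1, 1511, 1158 and 1338 CPM in combination 1 to 5, and 1546, 1849 and 1311 CPM in anti-CD40 1 to 3. It too was below vehicle in every regorafenib library, and combination 4 came down to the regorafenib level. Their slow partners Myl3 and Myl2 were close to 0, at 0.0349 CPM per kb ± 0.0114 and 0.0330 ± 0.0250 with vehicle. Myl3 read 0.0794, 0.101, 0.0533 and 0.0519 CPM in vehicle 1 to 4 and 0, 0.0886, 0.169 and 0 CPM in regorafenib 1 to 4. It read 0.243, 0.277 and 0.0898 CPM in anti-PD1 1 to 3, 0.260, 0.177, 0.390, 0.337 and 0.0996 CPM in combination 1 to 5, and 0.313, 0.109 and 0.0416 CPM in anti-CD40 1 to 3. No order is read from values this close to 0. Myl2 read 0, 0.101, 0.0533 and 0.104 CPM in vehicle 1 to 4 and 0.115, 0.310, 0.169 and 0.0443 CPM in regorafenib 1 to 4. It read 0.243, 0.111 and 0 CPM in anti-PD1 1 to 3, 0.346, 0, 0.0557, 0.0481 and 0.199 CPM in combination 1 to 5, and 0.157, 0.218 and 0.0416 CPM in anti-CD40 1 to 3. Myl2 was near 0 in all groups. Slow heavy chain Myh7 read 0.0794, 0.554, 0.0533 and 0 CPM in vehicle 1 to 4 and 0, 0.487, 0.563 and 0 CPM in regorafenib 1 to 4. It read 1.02, 0.443 and 0.0449 CPM in anti-PD1 1 to 3, 0.130, 0.0591, 0, 0 and 0.996 CPM in combination 1 to 5, and 0, 0.109 and 0 CPM in anti-CD40 1 to 3. All 3 slow genes had libraries at or near 0 in several groups.

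Troponin gave the same split. Fast troponin I, Tnni2, read 995 CPM per kb ± 120.4 with vehicle against 0.253 ± 0.112 for slow Tnni1, and fast troponin T, Tnnt3, read 2512 ± 331 against 2.11 ± 0.450 for slow Tnnt1. Fast troponin C, Tnnc2, was at 1958 ± 195 and slow Tnnc1 at 0.163 ± 0.0865. The ratio of Tnnt3 to Tnnt1 averaged 1258 with vehicle, 1139 with regorafenib, 1298 for anti-PD1, 1383 for the combination and 1115 for anti-CD40, and the ranges of the groups overlapped. Tnnt3 read 3516, 4009, 3681 and 4699 CPM in vehicle 1 to 4 and 3197, 3416, 2534 and 2895 CPM in regorafenib 1 to 4. It read 3610.3, 4300.0 and 4127 CPM in anti-PD1 1 to 3, 4364, 3716, 4604, 3348 and 3974 CPM in combination 1 to 5, and 4333, 5365 and 3235 CPM in anti-CD40 1 to 3. The 4 regorafenib libraries of Tnnt3 were below the 4 vehicle libraries. Tnnt1 read 5.44, 5.49, 4.15 and 3.48 CPM in vehicle 1 to 4 and 5.04, 4.16, 3.89 and 2.48 CPM in regorafenib 1 to 4. It read 5.05, 3.93 and 4.17 CPM in anti-PD1 1 to 3, 4.68, 3.07, 4.01, 4.28 and 4.43 CPM in combination 1 to 5, and 4.28, 6.34 and 5.94 CPM in anti-CD40 1 to 3. Tnnt1 values overlapped between all groups, except that regorafenib 4 was the lowest of all. Tnnt1 is the best counted of these slow genes, with 52 to 143 counts per library, and it was at -0.26 ± 0.20 with regorafenib (adjusted p = 0.446). Tnni1 was at -0.62 ± 0.32 (adjusted p = 0.237) and was not called, an estimate that rests on only 6 to 27 counts per library. Tnni2 read 1386, 1475, 1349 and 1748 CPM in vehicle 1 to 4 and 1316, 1457, 961 and 1291 CPM in regorafenib 1 to 4. It read 1524, 1704 and 1523 CPM in anti-PD1 1 to 3, 1667, 1526, 1734, 1234 and 1546 CPM in combination 1 to 5, and 1767, 1986 and 1225 CPM in anti-CD40 1 to 3. In Tnni2 regorafenib 2 was within the vehicle range, so the groups overlapped. Tnni1 read 0.715, 0.504, 1.44 and 0.986 CPM in vehicle 1 to 4 and 0.803, 0.664, 0.338 and 0.532 CPM in regorafenib 1 to 4. It read 1.02, 0.554 and 0.808 CPM in anti-PD1 1 to 3, 0.823, 0.532, 0.668, 0.578 and 0.548 CPM in combination 1 to 5, and 0.731, 1.09 and 1.12 CPM in anti-CD40 1 to 3. Vehicle alone covered most of the range of Tnni1. Tnnc2 read 1485, 1451, 1535 and 1794 CPM in vehicle 1 to 4 and 1296, 1496, 1029.7 and 1311 CPM in regorafenib 1 to 4. It read 1529, 1727 and 1583 CPM in anti-PD1 1 to 3, 1631, 1429, 1794, 1197 and 1433 CPM in combination 1 to 5, and 1832, 2149 and 1262 CPM in anti-CD40 1 to 3. Regorafenib 2 was within the vehicle range here too. Tnnc1 read 0.159, 0.202, 0.266 and 0.0519 CPM in vehicle 1 to 4 and 0, 0.0886, 0.0563 and 0.0886 CPM in regorafenib 1 to 4. It read 0.194, 0.0554 and 0.0898 CPM in anti-PD1 1 to 3, 0.0866, 0.118, 0.167, 0.144 and 0 CPM in combination 1 to 5, and 0.209, 0.492 and 0.125 CPM in anti-CD40 1 to 3. Counts of Tnnc1 were too few to order the groups.

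Myosin-binding protein C ran the other way. Slow Mybpc1 read 288 CPM per kb ± 24.0 with vehicle against 33.4 ± 13.9 for fast Mybpc2, and the ratio of Mybpc2 to Mybpc1 averaged 0.116 with vehicle, 0.160 with regorafenib, 0.200 for anti-PD1, 0.168 for the combination and 0.157 for anti-CD40. Mybpc1, whose protein is known from both slow and fast fibres, fell with regorafenib while Mybpc2 was at -0.14 ± 0.47. By fibre type, 3 of 12 fast genes fell with regorafenib (Myoz3, Myh4 and Mylpf; median -0.38), 1 of 4 tested slow genes fell (Mybpc1; median -0.44), and of 23 genes of both types 12 fell and 1 rose (median -0.56). Against regorafenib, 3 of 12 fast genes were higher in the combination (Myoz3, Myh4 and Myh1), 1 of 4 tested slow genes (Mybpc1), and 15 of 23 genes of both types, with 1 lower. Tpm3, described above as the slow-fibre tropomyosin, and Tpm1, of fast and cardiac muscle, were counted with the genes of both types. So were Mylk3, described above as best known from heart, and the myomesins Myom2 and Myom3. That set thus holds members not listed as fast or slow, and their even use in both fibre types was not checked. Tpm3 was the gene of that set that rose. Whether fast and slow genes differed in their change was not tested.

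A small set of fast genes varied between libraries rather than between groups. The SD of log2 CPM within groups was 1.00 for Myh2, 0.91 for Actn3 and 0.71 for Mybpc2, beside a median of 0.23 over the tested members and 0.18 over all genes. The rest of the members ran from 0.08 for Tpm3 to 0.41 for Tnni1, apart from the near-absent Myh7. Actn3, the fast alpha-actinin, read 24.5, 102, 37.5 and 54.6 CPM in vehicle 1 to 4 and 46.8, 93.6, 62.8 and 24.8 CPM in regorafenib 1 to 4. It read 81.1, 155 and 43.3 CPM in anti-PD1 1 to 3, 82.4, 46.1, 125, 71.5 and 93.8 CPM in combination 1 to 5, and 107, 162 and 21.9 CPM in anti-CD40 1 to 3. The groups overlapped throughout. Its relative Actn2, called above, was steady by comparison, with 571 to 772 CPM in vehicle and 404 to 494 CPM in regorafenib.

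Mybpc2 read 74.7, 183, 86.1 and 139.6 CPM in vehicle 1 to 4 and 86.1, 165, 126 and 61.4 CPM in regorafenib 1 to 4. It read 176, 261 and 141 CPM in anti-PD1 1 to 3, 192, 122, 248, 116 and 195 CPM in combination 1 to 5, and 186, 298 and 51.1 CPM in anti-CD40 1 to 3. As in Actn3, anti-CD40 2 was the highest library and anti-CD40 3 the lowest. Myh2 read 50.4, 157, 91.9 and 98.5 CPM in vehicle 1 to 4 and 65.1, 120.2, 46.1 and 30.8 CPM in regorafenib 1 to 4. It read 72.8, 114 and 60.1 CPM in anti-PD1 1 to 3, 184, 39.97, 184, 61.5 and 178 CPM in combination 1 to 5, and 109.9, 173 and 19.2 CPM in anti-CD40 1 to 3. In Myh2 the lowest library was anti-CD40 3 too, and 3 combination libraries were the highest. With regorafenib Myh2 was at -0.60 ± 0.65 (adjusted p = 0.604) and Actn3 at 0.06 ± 0.61 (adjusted p = 0.965), errors wide enough to hide a change like that of Neb.

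**Figure D5:**
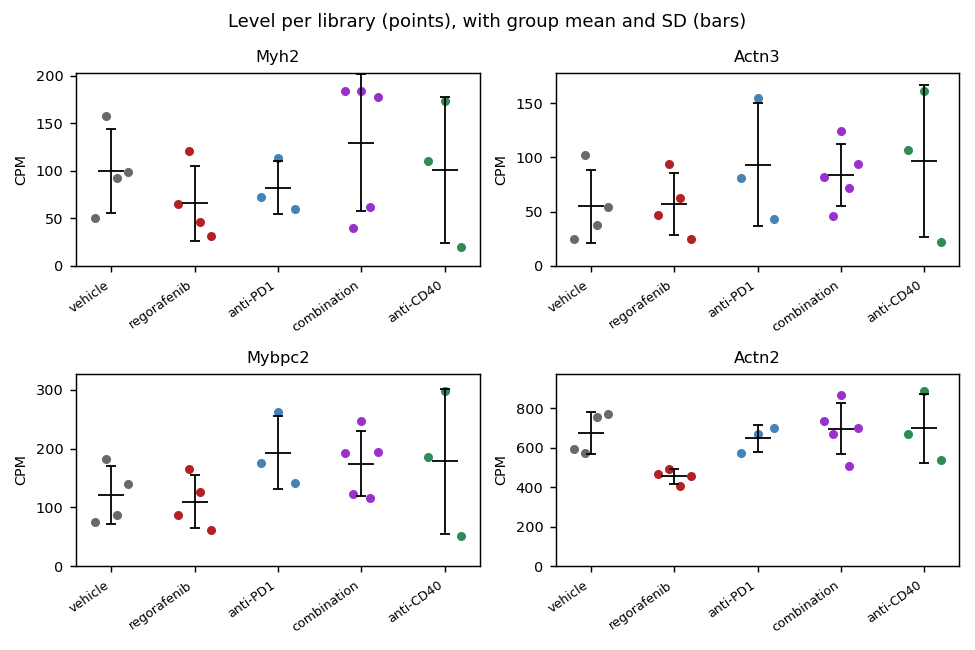
Level in CPM (vertical axes, linear from 0) of Myh2, Actn3, Mybpc2 and, for comparison, Actn2 in each library (points), with group mean and SD as bars. In Myh2, Actn3 and Mybpc2 libraries of the same group differ several-fold, with anti-CD40 3 lowest, and in Actn2 the 4 regorafenib points lie between 404 and 494 CPM below all other groups.

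Counting limits remain for some members. Exons of 14 members overlap exons of a gene on the opposite strand, among them Neb with Gm13522, Myom1 with Myl12a, Mybpc1 with Gm48752, Nrap with Gm17197 and Habp2, Ttn with Gm13938, Xirp2 with Gm13601 and Tnnc2 with Ube2c. The strand setting of the counting is not given in the sources used here, so reads of such a pair may be shared and these genes' levels are uncertain to that extent.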

How the data were processed

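RNA from 19 mouse oral tumour samples was made into libraries with a stranded kit for polyadenylated RNA, per the labels' protocols. The submitters' processing notes name cutadapt 2.4, STAR 2.7.2a and the build GRCm38; how reads were assigned to genes and by which strand rule is not given in the sources used here. The authors deposited 1 table of whole-number counts per gene, not normalized, for 55487 genes. Columns were matched to samples by the column names in the labels, and groups and replicate numbers were taken from the titles. The column names carry other numbers than the titles for vehicle 3 and 4 and regorafenib 3 and 4 and the title numbers are used throughout, so same-numbered libraries need not correspond.

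Symbols, coordinates and exon lengths came from GENCODE M21, where 37 of 42 member identifiers matched with their version and the rest without it. Genes of low count were removed by group with filterByExpr, which kept 16909 genes with 99.92% of counts. TMM scaling was used, and in R 4.3.3 a robust quasi-likelihood model of edgeR 4.0.16, with a mean for each group, was fitted to the 19 libraries together (residual degrees of freedom 14, common dispersion 0.0345). The 8 tests were two-sided and adjusted by Benjamini and Hochberg over all tested genes at 0.05. Levels are TMM-scaled CPM, with a prior count of 2 on the log2 scale. The SE is the log2 change, without its sign, over the square root of F. The edgeR fit was tried on simulated counts for regorafenib and for anti-PD1, each against vehicle, with genes drawn independently. The other tests and the alternatives were not simulated.

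The members and lists were chosen with earlier results of these data known. Values in every library are given for up to 8 called members of smallest p per test, for the 2 of smallest p where none was called, and for the fast and slow pairs. From each other list up to 3 called genes of smallest p are named. Myf6, the uncalled members and the cardiac genes were named after their values were seen. Replicate numbers were not treated as pairs: of 33 same-numbered pairs of libraries in different groups, 15 had deviations correlated above 0.1 (median r 0.03), and of 110 others 45 (median -0.06). Libraries of a group differed by more than sampling noise in every pair (lowest chi-square over its degrees of freedom 12.8). Alternatives were another scaling (RLE, or TMM without muscle genes), testing every gene, DESeq2 1.42.0, fitting only the groups compared, a replicate block, salivary and muscle marker covariates, length and GC offsets, and leaving out each library. Figures used matplotlib 3.10.9.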

Additional observations from a re-analysis of the deposited data

Results flagged for a closer look

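The interaction of regorafenib and anti-PD1 on Neb was 0.92 on the log2 scale (SE 0.15, edgeR adjusted p = 0.0138), a tested difference between the change with regorafenib on vehicle and on anti-PD1. All 4 regorafenib libraries were below all 4 vehicle libraries, and all 3 anti-PD1 libraries lay within or below the range of the 5 combination libraries. No library stood apart from its group by Dixon's test at 95% in any of the 117 sets of a tested member and a group of 4 or more libraries. The anti-PD1 and anti-CD40 groups, with 3 libraries each, were not in those sets. That test therefore says nothing about the anti-PD1 libraries on which the Neb interaction call depended.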

How the results depend on the processing

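Length and GC offsets turned Ttn to 0.0558 in regorafenib against vehicle. The muscle marker covariate, added after the data were seen, turned Ldb3, Acta1 and Des to -0.00405, -0.0262 and -0.0260 in the combination against regorafenib. It left 0 members called in both comparisons and 0 for any difference among the 5 groups (9 at an unadjusted p under 0.05), where it called 0.124%, 0.00591% and 0.201% of all tested genes. No other direction turned. Of the other values of named members, 1107 kept their side of the threshold, 177 fell short of it and 0 newly passed. These members were the ones called, or the 2 of smallest p where none was called, so most could not newly pass. Over all members some fits did call more, as given below. Each count of members below is followed by the share of all tested genes that the same fit called. For DESeq2 the share is of the genes to which it gave an adjusted p. These were 14285 for regorafenib against vehicle and for any difference, and 14613 for the interaction, beside 16909 in edgeR. The count for regorafenib against vehicle was 26 with DESeq2 (11.8%), and 6 (1.59%, without vehicle 4) to 23 (8.24%, without anti-CD40 3) with 1 library left out. For the combination against regorafenib it was 8 (2.87%, without regorafenib 4) to 27 (13.4%, without anti-CD40 3). The replicate block gave 14 (4.23%) and 14 (7.10%) in these comparisons, 1 (0.213%) for the interaction and 3 (1.24%) for any difference. The interaction count was 2 with no filter (0.331%), 4 with the salivary covariate (1.95%), 0 with length and GC offsets (0.106%), 4 with only the groups compared (0.976%) and 11 with DESeq2 (3.98%). It was 0 without anti-PD1 1 (0.0641%) or anti-PD1 3 (0.0757%), 3 without anti-CD40 2 (0.907%) and 4 without anti-CD40 3 (1.04%). The count for any difference was 28 with DESeq2 (17.6%), 0 without regorafenib 4 (0.231%), 1 without regorafenib 1 (0.409%), 1 without regorafenib 3 (1.10%), 5 without regorafenib 2 (1.55%), 6 without anti-CD40 1 (2.47%) and 25 without anti-CD40 3 (11.2%). Shares over all genes moved with the members' counts in most of these fits, and the cause of these shifts was not tested. Without division by exon length the fast share was 95.2% (vehicle), 95.6% (regorafenib), 95.6% (anti-PD1), 95.3% (combination) and 95.5% (anti-CD40); without Mybpc1 it was 99.974%, 99.973%, 99.975%, 99.977% and 99.971%. Depth limits Myh7, Myl2, Myl3, Tnnc1, Tnni1 and Mylk3, and groups of 3 to 5 libraries limit the rest.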
